A study of Homo sapiens with 24 samples.

Results

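The proteasome genes were followed in transcript counts from MCF10A cells, an established, non-tumorigenic line of human breast epithelium. They were the rows of the count table named PSMA, PSMB, PSMC or PSMD with a number, without the interferon-inducible and tissue-specific catalytic forms, plus PSME3, PSME4, PSMF1 and PSMG1 to PSMG4. This gave 41 of the 59251 genes in the table, all of which were among the 20820 genes with enough counts to be tested. The set is wider than the name constitutive proteasome subunits. It holds 14 genes of the 20S core (7 alpha and 7 beta), 6 ATPases and 3 other genes of the 19S base, 8 genes of the 19S lid, 3 assembly chaperones of the 19S base, 3 activators or regulators and 4 assembly chaperones of the 20S core. The rule goes by gene name.

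The series examined CHD1, a chromatin remodelling ATPase, in a MYC-transformed line called PM and a non-transformed line called PE. PM with CHD1 hairpin B, PM with CHD1 hairpin A, PM with a hairpin against GFP, PE with hairpin B, PE with hairpin A and PE with the GFP hairpin were the 6 groups, with 4 libraries each and 24 in all. Every culture, the GFP hairpin controls included, received doxycycline at 50 ng/ml for 72 h, so there was no group without the drug. The labels do not say whether a line is 1 clone, which promoter drives MYC, or how the cultures called biological replicates were separated, and the p-values therefore cover only the variation among the libraries at hand, which may be technical.

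Libraries held between 4.14 and 93.3 M counts (median 49.5 M), and single proteasome genes between 106 and 44675 counts. Levels are given in CPM, counts per M counts of the library after TMM scaling between libraries. CHD1 averaged 29.5 ± 5.40 CPM with hairpin B and 31.04 ± 2.76 CPM with hairpin A in PM, against 90.0 ± 5.18 CPM with the GFP hairpin, and 28.1 ± 3.07 and 29.2 ± 1.20 CPM in PE, against 78.8 ± 5.53 CPM (SD, n = 4 each). All 12 epithelial markers were detected. Among 8 immune markers CD3E, CD79A and LYZ, and among 11 fibroblast or endothelial markers COL1A2, PDGFRA, VWF and CDH5, stayed under 1 CPM in every library, while other genes of both lists exceeded it in at least 1 library. The summed epithelial markers were lower with each CHD1 hairpin, at 3259 to 3590 CPM with B and 2572 to 2863 CPM with A in PM, against 4598 to 5581 CPM with the GFP hairpin, and at 2556 to 3176 CPM and 3701 to 5003 CPM in PE, against 5658 to 7993 CPM. The sum does not stand for every marker: 5 of the 12 were called lower and 2 higher with each hairpin in PM and with hairpin A in PE, and 8 lower and 3 higher with hairpin B in PE. LAMB3 averaged 856 CPM with hairpin A in PE, against 2692 CPM with the GFP hairpin, whereas KRT8 averaged 386 CPM, against 237 CPM. Their part in the results below was not tested. In PE, GFP hairpin replicate 1 was the shallowest library, and replicate 4 of hairpin A in PM and replicate 3 of hairpin B in PM stood apart in the number of genes detected.

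The proteasome degrades proteins that carry ubiquitin chains. Its 20S core is a barrel of alpha and beta rings in which 3 beta subunits, PSMB5, PSMB6 and PSMB7, cut peptide bonds. The 19S regulatory particle caps the barrel. Its base unfolds substrates with a ring of ATPases, and its lid removes ubiquitin through the metalloprotease PSMD14. Dedicated chaperones assemble the core and the base. When the proteasome is inhibited, human cells raise most subunit genes together through the transcription factor NFE2L1, which is freed and processed with the help of the N-glycanase NGLY1 and the protease DDI2.

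Promoter sequences are shown for PSMD1 and PSMD9, which were called higher with each CHD1 hairpin in each line, for PSMB2 and PSMD11, which were called lower with hairpin B in each line, and for PSMG1, which differed most between the lines. Each is the window from 250 bases before to 50 after the RefSeq start on GRCh38.p14, written 5′ to 3′ on the strand of the gene. The windows are chr2:231056617-231056916 (plus strand), chr12:121888540-121888839 (plus), chr1:35641477-35641776 (minus), chr17:32444260-32444559 (plus) and chr21:39183402-39183701 (minus). Capitals mark matches on either strand to 4 motifs, namely CACGTG (the E-box to which MYC binds with MAX), TGACNNNGC (the core of the antioxidant response element), CCAAT (the CCAAT box) and CGGAAG (the core of ETS factor sites).
PSMD1: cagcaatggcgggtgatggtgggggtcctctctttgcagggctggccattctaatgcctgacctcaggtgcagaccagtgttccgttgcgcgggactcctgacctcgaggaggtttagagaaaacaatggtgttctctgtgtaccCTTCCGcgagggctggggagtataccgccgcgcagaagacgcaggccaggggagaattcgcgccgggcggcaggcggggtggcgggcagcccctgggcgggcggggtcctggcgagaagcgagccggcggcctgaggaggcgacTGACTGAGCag
PSMD9: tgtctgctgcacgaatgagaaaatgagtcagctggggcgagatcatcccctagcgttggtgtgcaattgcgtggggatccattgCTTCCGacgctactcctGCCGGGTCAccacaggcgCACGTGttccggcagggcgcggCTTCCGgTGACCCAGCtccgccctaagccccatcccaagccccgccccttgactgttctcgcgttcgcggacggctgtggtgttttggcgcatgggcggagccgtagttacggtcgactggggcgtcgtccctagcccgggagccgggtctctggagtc
PSMB2: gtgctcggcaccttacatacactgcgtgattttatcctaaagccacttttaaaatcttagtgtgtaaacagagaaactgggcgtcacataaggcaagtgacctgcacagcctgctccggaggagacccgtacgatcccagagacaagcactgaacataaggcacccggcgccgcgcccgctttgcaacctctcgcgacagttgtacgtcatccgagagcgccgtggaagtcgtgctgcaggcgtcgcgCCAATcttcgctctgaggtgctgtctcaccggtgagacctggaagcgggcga
PSMD11: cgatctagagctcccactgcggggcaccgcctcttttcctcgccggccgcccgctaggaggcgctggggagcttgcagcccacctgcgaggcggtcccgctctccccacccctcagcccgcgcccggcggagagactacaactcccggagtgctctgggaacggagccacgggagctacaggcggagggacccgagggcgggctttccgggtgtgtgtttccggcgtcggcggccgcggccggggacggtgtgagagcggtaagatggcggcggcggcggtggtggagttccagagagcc
PSMG1: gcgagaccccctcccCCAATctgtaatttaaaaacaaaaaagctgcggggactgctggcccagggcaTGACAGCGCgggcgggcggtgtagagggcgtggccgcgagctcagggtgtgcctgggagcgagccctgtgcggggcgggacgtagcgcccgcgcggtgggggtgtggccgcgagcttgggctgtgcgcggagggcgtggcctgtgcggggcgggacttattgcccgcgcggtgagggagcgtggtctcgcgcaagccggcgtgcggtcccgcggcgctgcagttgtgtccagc
PSMD11 held no match, and PSMB2 held the CCAAT box alone. No matches overlapped in these 5 windows.

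Of the 41 genes, 35 had a promoter in the RefSeq table. CGGAAG was present in 60.0% of these 35 promoters, against 19.9% of all 27303 promoters of the same length. TGACNNNGC was present in 28.6% of the proteasome promoters, against 13.6% of all promoters. CCAAT was found in 48.6%, against 35.7% of all promoters, and CACGTG in 8.57%, against 7.44%. The median GC content was 62.0% in the proteasome promoters and 58.3% in all promoters. These are matches of letters in a window, and binding was not measured.

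Transcript levels differed widely between the subunits. Per kb of annotated exon (GENCODE v29) and averaged over the 6 groups, the 20S beta genes had a median of 128 CPM per kb and the 20S alpha genes of 93.8 CPM per kb. The median was 53.9 CPM per kb for the ATPases, 150.4 for the other base genes and 71.6 for the lid. The assembly chaperones stood lower, with medians of 18.6 CPM per kb for those of the 19S base and 19.9 for those of the 20S core. PSMB3 and PSMB4, structural beta subunits, were the highest of the 41 at 383 and 289 CPM per kb. PSMB2 was the lowest beta gene at 33.96 CPM per kb. PSMA7 led the alpha ring at 151 CPM per kb and PSMA5 was its lowest member at 39.6. Among the ATPases PSMC3 was the highest at 148 CPM per kb and PSMC1 the lowest at 18.4. The order depends on the length used. PSME3 ranked 24 of 41 by all annotated exons and 3 by its principal transcript, and PSMG4 ranked 41 and 33.

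The 41 genes did not move as a block when CHD1 was knocked down. PSMA7, PSMB1, PSMD1 and PSMD9 were called higher with each hairpin in each line, none was called lower in all 4 comparisons, and 13 were called in none of them. The matching shares of all genes tested were not counted, and the hairpins of a line share their GFP libraries. Changes were small: the largest fold change of any proteasome gene against the GFP hairpin was 1.40 in either direction. With hairpin A more of the 41 were called higher than lower, and with hairpin B more were called lower than higher. For hairpin B in PE this was 12.2% higher and 17.1% lower, near the 13.6% and 13.2% of all genes tested. In PM the balance for hairpin B moved with the scaling. A gene was called when its adjusted p from edgeR's quasi-likelihood test was under 0.05 over all 20820 genes.

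**Figure D1:**
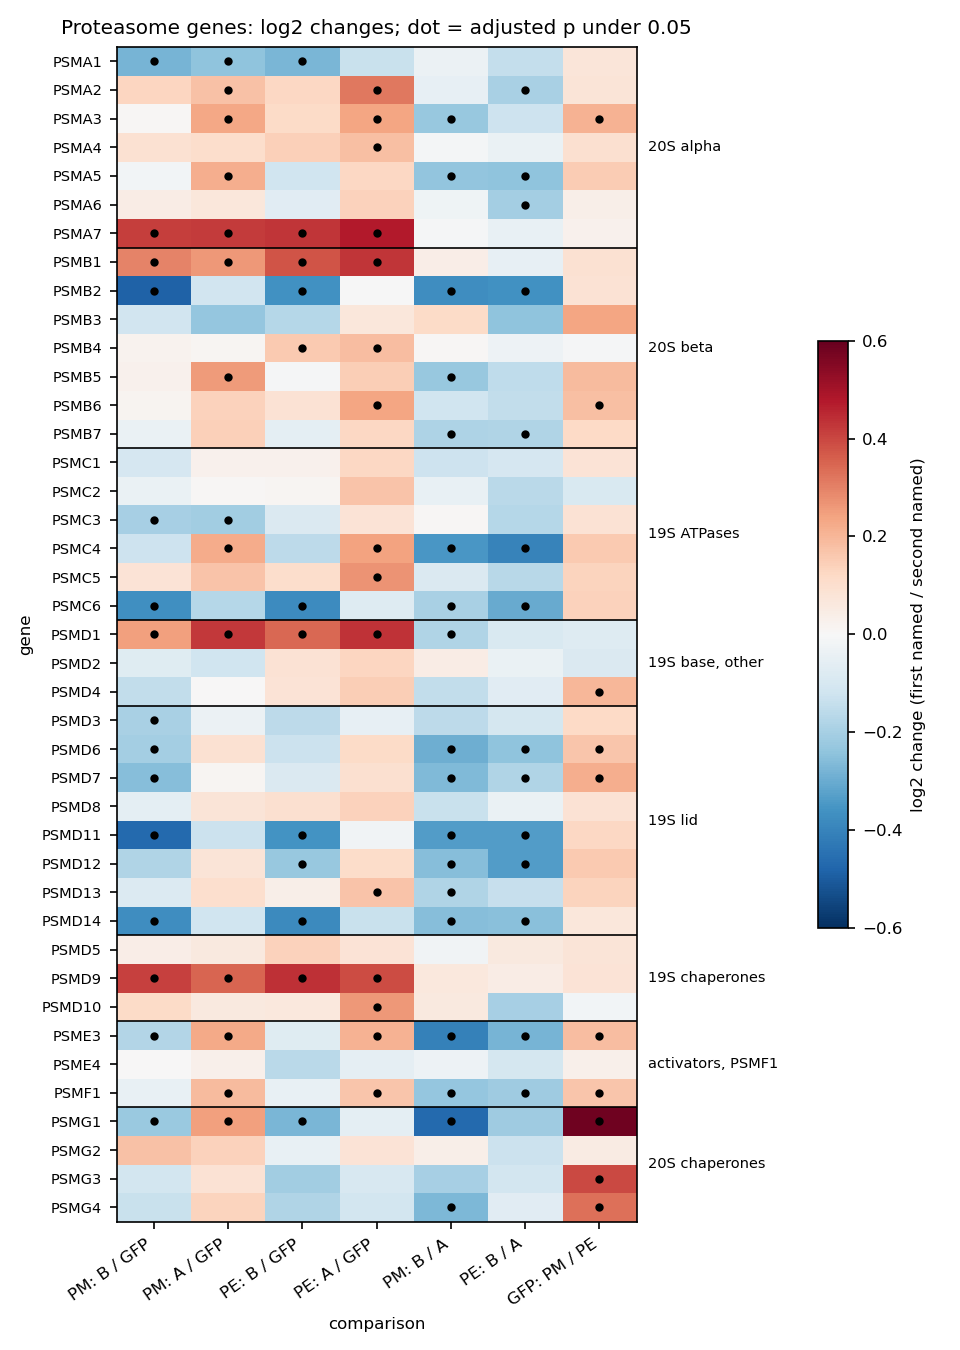
Log2 change of each of the 41 genes (rows, grouped by role) in 7 comparisons (columns), with black dots where the adjusted p was under 0.05. PSMA7, PSMB1, PSMD1 and PSMD9 are red with a dot in all 4 columns against GFP, and no dot in the columns of hairpin B against A stands on a red cell.

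With hairpin A in PM, 12 of the 41 genes were called higher, against 13.4% of all genes tested, and 2 were called lower, against 14.3%. In PE, 15 were called higher with hairpin A, against 10.9% of all genes tested, and none lower, against 9.33%. The 0 stood beside 1 gene lower at an unadjusted p under 0.05, 0 by DESeq2 and 0 by limma-voom. The median log2 change of the 41 with hairpin A was 0.09 in PM, against -0.0059 over all genes tested, and 0.13 in PE, against -0.0019 over all genes tested. The count in PE changed with single libraries. It was 9 without replicate 1 of hairpin A in PE, 8 without its replicate 2 and 8 when the shallowest control library was left out, all higher. With library sizes alone in place of TMM, 6 were called higher and 2 lower in PE. In PE the calls of PSMA2, PSMA7, PSMB1, PSMC5, PSMD1 and PSMD9 held under each alternative and without each library in turn, 6 of 15. In PM 8 of 14 did, those of PSMA1, PSMA3, PSMA7, PSMB1, PSMB5, PSMD1, PSMD9 and PSME3.

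With hairpin B in PM, 4 of the 41 were called higher, against 13.6% of all genes tested, and 11 were called lower, against 14.4%. In PE, 5 were called higher, against 13.6%, and 7 were called lower, against 13.2% of all genes tested. The median log2 change with hairpin B was -0.06 in PM, against 0.01 over all genes tested, and -0.05 in PE, against 0.01 over all genes tested. The balance of directions moved with the scaling. In PM it was 7 higher and 7 lower with library sizes alone and 6 higher and 8 lower with DESeq2 size factors, and in PE it was 4 higher and 10 lower with library sizes alone. Under each alternative and without each library in turn, 9 of 12 calls held in PE. They were PSMA1, PSMA7, PSMB1, PSMB2, PSMC6, PSMD1, PSMD9, PSMD11 and PSMD14. In PM the calls of the same genes and of PSMD7 held, 10 of 15.

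Under both hairpins and in the same direction, 4 of the 41 were called higher in PM, against 6.46% of all genes tested, and 2 lower, against 6.89%. In PE 5 were called higher, against 6.75%, and 0 lower, against 5.58%. That 0 from edgeR stood beside 1 gene, PSMA1, lower under both at an unadjusted p under 0.05, 0 by DESeq2 and 0 by limma-voom. The hairpins of a line share their GFP libraries, so these counts are not independent of one another. With library sizes alone the counts were 5 higher and 1 lower in PM and 4 higher and 2 lower in PE.

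The libraries of PM and PE are separate, so calls can be set side by side across the lines. Of the genes called higher with hairpin A, 9 were shared, which is 75.0% of those of PM and 60.0% of those of PE, against 46.8% and 57.8% over all genes tested. They were PSMA2, PSMA3, PSMA7, PSMB1, PSMC4, PSMD1, PSMD9, PSME3 and PSMF1. Of the genes called lower with hairpin B, PSMA1, PSMB2, PSMC6, PSMD11, PSMD14 and PSMG1 were shared, 54.5% of those of PM and 85.7% of those of PE, against 62.1% and 67.9% over all genes tested. Change had the same sign in both lines for 34 of 41 genes (82.9%) with hairpin A, against 66.0% of all genes tested, and for 31 (75.6%) with hairpin B, against 72.4%.

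PSMA7, an alpha ring subunit (chromosome 20, bases 62136733 to 62143394 on GRCh38.p14, per RefSeq), stood at 246, 257, 252 and 276 CPM with hairpin B and 261, 271, 253 and 249.6 CPM with hairpin A in PM, against 186, 199, 178 and 209.9 CPM with the GFP hairpin. In PE it stood at 255, 269.6, 247 and 252 CPM with hairpin B and 264, 269, 252 and 269 CPM with hairpin A, against 172, 192, 191 and 202 CPM. Every CHD1 hairpin library lay above every GFP hairpin library. The log2 change was 0.42 ± 0.06 with hairpin B and 0.42 ± 0.06 with hairpin A in PM (SE), and 0.43 ± 0.06 and 0.47 ± 0.06 in PE (adjusted p of edgeR 1.43e-06, 1.12e-06, 8.46e-07 and 3.01e-07).

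PSMB1, a non-catalytic beta subunit (chromosome 6, bases 170535120 to 170553307), showed the same pattern. In PM it stood at 148, 156, 156 and 167 CPM with hairpin B and 151, 152, 144 and 163 CPM with hairpin A, against 128, 132, 124 and 126 CPM with the GFP hairpin. In PE the hairpin B libraries held 154, 155, 155 and 156 CPM and the hairpin A libraries 158, 164, 159.7 and 162 CPM, against 91.9, 127, 121 and 133 CPM. The groups did not overlap in either line, and the lowest control value came from the shallowest library. The log2 change was 0.30 ± 0.07 and 0.26 ± 0.07 with hairpins B and A in PM and 0.38 ± 0.07 and 0.43 ± 0.07 in PE, with adjusted p of edgeR between 2.25e-05 and 0.00466.

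PSMD1, a large scaffold of the 19S base that docks the ubiquitin receptor ADRM1 (chromosome 2, bases 231056867 to 231172827), was at 196, 214, 199 and 236 CPM with hairpin B and 234, 229, 232 and 262 CPM with hairpin A in PM, against 182, 181, 166 and 185 CPM with the GFP hairpin. In PE it was at 229.8, 237, 224 and 264 CPM with hairpin B and 253, 249.5, 256 and 259 CPM with hairpin A, against 169, 189, 182 and 210.1 CPM. No CHD1 hairpin library overlapped with the GFP hairpin libraries of its line. The log2 change was 0.24 ± 0.07 with hairpin B and 0.42 ± 0.07 with hairpin A in PM (adjusted p 0.00589 and 8.92e-06, edgeR). It was 0.34 ± 0.07 and 0.43 ± 0.07 in PE (adjusted p 0.000195 and 1.18e-05, edgeR). In PM hairpin B was lower than hairpin A by a log2 change of -0.18 ± 0.07 (adjusted p 0.0495, edgeR). That call did not hold under each alternative and without each library in turn. The hairpin A value of 262 CPM in PM came from replicate 4, the PM library with the fewest genes detected.

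PSMD9, a chaperone that helps assemble the ATPase ring (chromosome 12, bases 121888790 to 121918297), was the least abundant of these 4 genes at 18.6 CPM per kb. It had 56.8, 55.5, 61.7 and 60.7 CPM with hairpin B and 56.4, 61.9, 54.1 and 52.1 CPM with hairpin A in PM, against 47.8, 44.3, 42.2 and 42.5 CPM with the GFP hairpin. In PE it had 55.9, 60.0, 50.3 and 59.6 CPM with hairpin B and 53.8, 57.3, 53.1 and 54.5 CPM with hairpin A, against 33.8, 41.8, 42.7 and 45.7 CPM. The CHD1 hairpin libraries again lay above those with the GFP hairpin. The log2 change lay between 0.35 ± 0.08 (hairpin A in PM, adjusted p 0.000737, edgeR) and 0.44 ± 0.08 (hairpin B in PE, adjusted p 6.04e-05, edgeR). PSMD9 shares 15.7% of its exon bases, on the same strand, with a neighbour annotated as WDR66, whose row, named CFAP251 in the count table, averaged 4.23 CPM, against 51.9 CPM for PSMD9.

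**Figure D2:**
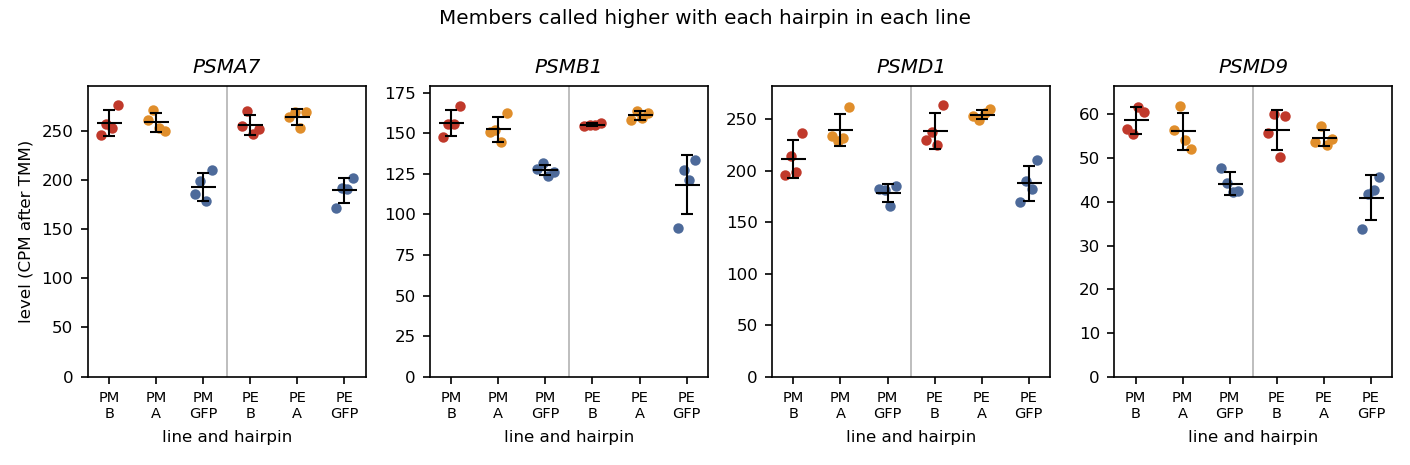
Level of PSMA7, PSMB1, PSMD1 and PSMD9 (y axis, CPM after TMM, from 0) in each library (points) by line and hairpin, with mean and SD (bars, n = 4). In each panel the shCHD1 libraries of a line (B and A) lie above its GFP libraries.

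Across the 20S core, hairpin A was followed by a rise of 4 of 7 alpha genes in PM and 4 of 7 in PE, and of 2 of 7 and 3 of 7 beta genes, against 13.4% of all genes tested in PM and 10.9% in PE. Besides PSMA7, PSMA2 rose by a log2 change of 0.18 in PM and 0.32 in PE, and PSMA3 by 0.23 and 0.24. Hairpin B gave 1 higher and 1 lower alpha gene in each line. The lower one was PSMA1, with 141, 156, 145 and 166 CPM in PM, against 188, 199.7, 177 and 171 CPM with the GFP hairpin, a log2 change of -0.28 ± 0.06 (adjusted p 0.000811, edgeR). In PE it changed by -0.27 ± 0.06 (adjusted p 0.00116, edgeR). PSMA1 was also called lower with hairpin A in PM (log2 change -0.24). Of the catalytic genes, PSMB5, which carries the chymotrypsin-like activity, rose with hairpin A in PM (log2 change 0.25), PSMB6, the caspase-like one, rose with hairpin A in PE (0.23), and PSMB7, the trypsin-like one, was called against GFP in neither line. PSMB3, the most abundant per kb, was not called in any comparison, with log2 changes between -0.23 and 0.07 against GFP and an SE of 0.13.

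PSMB2, a structural beta subunit (chromosome 1, bases 35599541 to 35641526), was called lower with hairpin B and was not called with hairpin A. It stood at 130.1, 142, 125 and 139.7 CPM with hairpin B and 176, 189, 165 and 164 CPM with hairpin A in PM, against 193, 200.2, 188 and 169.6 CPM with the GFP hairpin. In PE it stood at 143, 132, 130.2 and 144 CPM with hairpin B and 193, 186, 164 and 164 CPM with hairpin A, against 173, 182, 173 and 179 CPM. All 8 hairpin B libraries lay below all others. The log2 change with hairpin B was -0.49 ± 0.07 in PM (adjusted p 5.13e-07, edgeR) and -0.36 ± 0.07 in PE (5.65e-05).

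In the 19S particle, lid genes were called lower with hairpin B, 5 of 8 in PM (PSMD3, PSMD6, PSMD7, PSMD11 and PSMD14) and 3 of 8 in PE (PSMD11, PSMD12 and PSMD14), against 14.4% and 13.2% of all genes tested. With hairpin A, PSMD13 was called higher in PE (log2 change 0.17). All 8 lid genes had a negative log2 change with hairpin B in PM, with a median of -0.20. Of all 20820 genes tested, 10121 had a negative change there, with a median of 0.01. The lid calls with hairpin B that held under each alternative and without each library in turn were PSMD7, PSMD11 and PSMD14 in PM. In PE they were PSMD11 and PSMD14. PSMD11, a scaffold of the lid (chromosome 17, bases 32444510 to 32483319), had 124, 124, 109 and 126 CPM with hairpin B and 153, 157, 145 and 154 CPM with hairpin A in PM, against 175, 178, 151 and 161 CPM with the GFP hairpin. In PE it had 119, 124, 104 and 129.7 CPM with hairpin B and 161, 157, 136 and 148 CPM with hairpin A, against 152, 154, 153 and 152 CPM. The hairpin B libraries formed a separate, lower group in each line. The log2 change with hairpin B was -0.46 ± 0.07 in PM and -0.36 ± 0.07 in PE (adjusted p 2.07e-06 and 0.00013, edgeR).

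PSMD14, the deubiquitinase of the lid, was at 132, 129.8, 119 and 137 CPM with hairpin B in PM, against 167, 181, 168 and 155 CPM with the GFP hairpin. In PE it was at 117, 123, 116 and 136 CPM with hairpin B, against 142, 169.8, 160.1 and 167 CPM. The groups did not overlap in either line. The log2 change was -0.37 ± 0.07 in PM and -0.38 ± 0.07 in PE (adjusted p 6.84e-05 and 5.85e-05, edgeR). PSMC6, an ATPase of the base, changed alike, by -0.37 ± 0.07 and -0.38 ± 0.07 (adjusted p 0.00016 and 0.000152, edgeR). The other ATPase called lower with hairpin B was PSMC3 in PM (log2 change -0.20), which was also lower with hairpin A there (-0.21). PSMC5 (0.27) and PSMC4 (0.24) were the ATPases called higher, with hairpin A in PE, and PSMC4 also with hairpin A in PM (0.22).

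Among the activators and regulators, PSME3, which forms the nuclear PA28γ ring, and PSMF1, which encodes the regulator PI31, were called higher with hairpin A in PM (log2 change 0.23 and 0.19) and in PE (0.21 and 0.17). Of these calls, only that of PSME3 in PM held under each alternative and without each library in turn. PSME3 was lower with hairpin B in PM (-0.18). PSME4, which encodes PA200, was not called. The chaperone PSMG1, which guides assembly of the alpha ring together with PSMG2, was lower with hairpin B in PM (-0.22) and PE (-0.27) and higher with hairpin A in PM (0.25). PSMG2, PSMG3 and PSMG4 were not called against GFP.

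The difference between the hairpins was tested as a contrast of its own, in which the means of the GFP hairpin groups do not enter, although their libraries share in the estimate of the spread. Hairpin B was lower than hairpin A for 18 of the 41 genes in PM, against 13.5% of all genes tested, and for 14 in PE, against 9.09%. In neither line was a proteasome gene called higher with hairpin B, against 12.7% of all genes tested in PM and 7.48% in PE. These counts of 0 were also 0 at an unadjusted p under 0.05, by DESeq2 and by limma-voom. The median log2 change of the 41 was -0.15 in PM, against 0.03 over all genes tested, and -0.15 in PE, against 0.01 over all genes tested. CHD1 itself was lowered by both hairpins to levels that overlap. MYC was lower with hairpin B than with hairpin A in PM, by a log2 change of -0.52 ± 0.06 (adjusted p 3.75e-08, edgeR), and was not called in PE (log2 change 0.09), and its part in the result was not tested.

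The 12 genes lower in both lines were PSMA5, PSMB2, PSMB7, PSMC4, PSMC6, PSMD6, PSMD7, PSMD11, PSMD12, PSMD14, PSME3 and PSMF1, 66.7% of those of PM and 85.7% of those of PE, against 42.1% and 62.7% over all genes tested. Lid genes made up 6 of 18 in PM and 5 of 14 in PE, and they are 8 of the 41. The count was 8 in PE without replicate 1 of hairpin A and 9 without replicate 3 of hairpin B, and 11 in PM without replicate 2 of hairpin A, all lower. With library sizes alone 10 genes were lower in PM. Called lower in PE under each alternative and without each library in turn were PSMB2, PSMC4, PSMC6, PSMD6, PSMD11, PSMD12, PSMD14 and PSME3, and in PM PSMB2, PSMC4, PSMD6, PSMD7, PSMD11, PSME3, PSMF1 and PSMG1.

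PSMC4, an ATPase of the base (chromosome 19, bases 39971165 to 39981764), had the largest difference between the hairpins in PE. In PM it had 106, 118, 99.6 and 121 CPM with hairpin B and 150.4, 160.2, 137 and 118 CPM with hairpin A, and the GFP hairpin libraries had 124, 132, 108 and 120.2 CPM. In PE it had 101, 96.5, 89.6 and 102 CPM with hairpin B and 131, 136, 119 and 127 CPM with hairpin A, and the GFP hairpin libraries had 93.0, 107, 111 and 120.4 CPM. Hairpins B and A did not overlap in PE and overlapped in 1 library of hairpin A in PM. The log2 change of B against A was -0.35 ± 0.08 in PM and -0.40 ± 0.08 in PE (adjusted p 0.00164 and 0.000653, edgeR).

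PSME3 (chromosome 17, bases 42833397 to 42843760) had 218, 243, 213 and 245 CPM with hairpin B in PM, against 313, 314, 284 and 307 CPM with hairpin A, and 222, 207, 194 and 245 CPM in PE, against 273, 285, 246 and 251 CPM. Hairpin B lay below hairpin A in both lines. The log2 change of B against A was -0.41 ± 0.07 in PM (adjusted p 1.78e-05, edgeR) and -0.28 ± 0.07 in PE (adjusted p 0.00292, edgeR). PSMG1 had the largest difference in PM, -0.47 ± 0.08 (adjusted p 2.36e-05, edgeR), and was not called in PE (-0.21 ± 0.08, adjusted p 0.061, edgeR). PSMB2 differed by -0.37 ± 0.07 in PM and -0.36 ± 0.07 in PE, and PSMD11 by -0.34 ± 0.07 in each line. PSMD12, a lid subunit, differed by -0.26 ± 0.07 in PM and -0.34 ± 0.07 in PE.

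**Figure D3:**
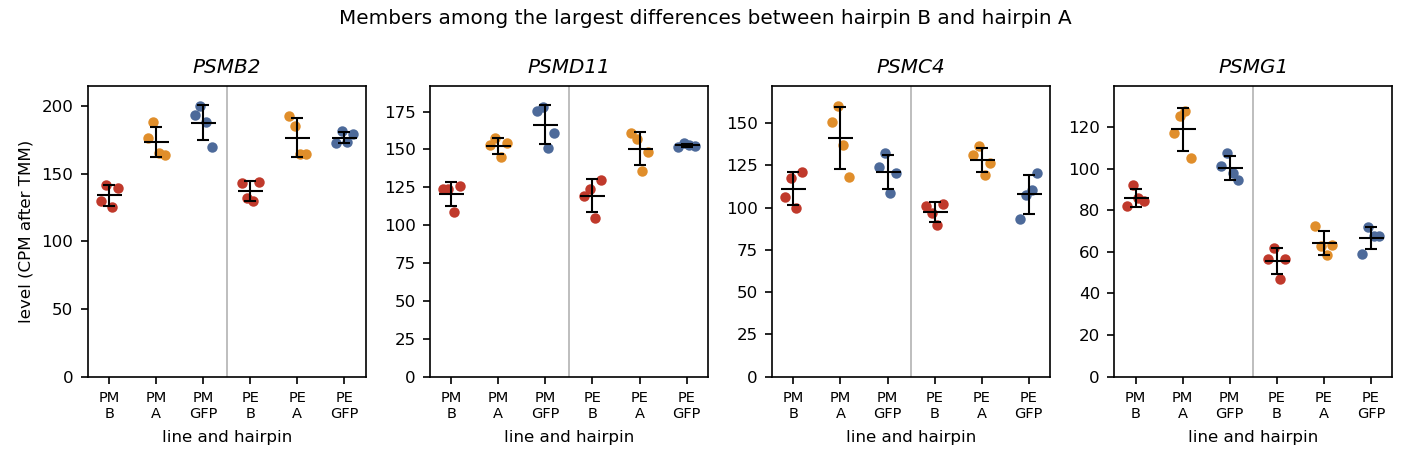
Level of PSMB2, PSMD11, PSMC4 and PSMG1 (y axis, CPM after TMM, from 0) in each library (points) by line and hairpin, with mean and SD (bars, n = 4). The hairpin B libraries lie lowest for PSMB2 and PSMD11 in both lines, and PSMG1 is higher in PM than in PE with every hairpin.

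**Figure D4:**
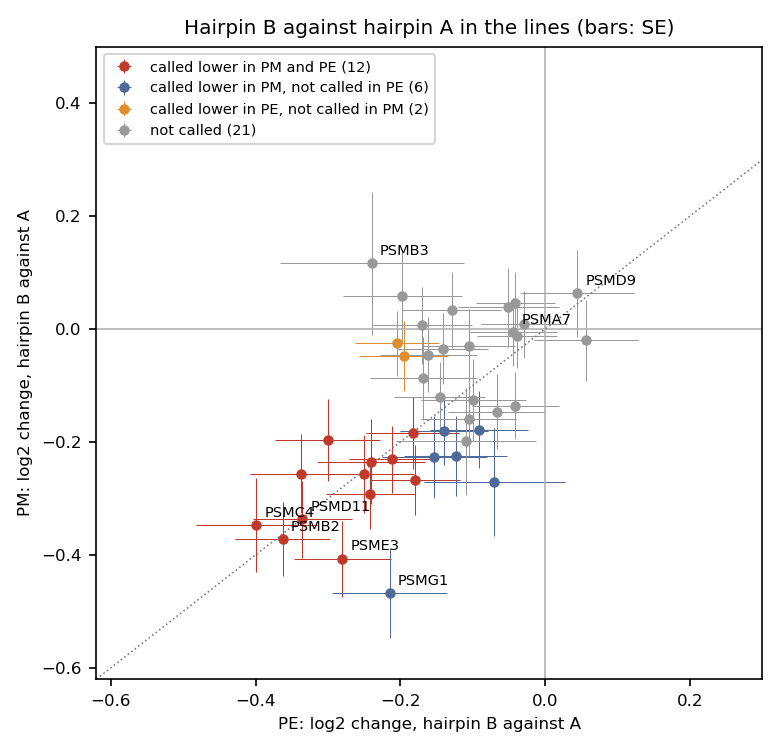
Log2 change of hairpin B against hairpin A in PM (y axis) and PE (x axis) for the 41 genes, with SE as bars, coloured by call. The 12 genes called in both lines lie at the lower left, and no called gene lies above 0 on either axis.

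The hairpin A effect differed between the lines for 1 of the 41 genes, PSMD2, a scaffold of the 19S base that binds shuttle proteins, with a log2 difference of -0.25 ± 0.08 (PM minus PE, adjusted p 0.0449, edgeR). Of all genes tested, 3.9% were called in that direction and 2.76% in the other. PSMD2 had 462, 489, 472 and 473 CPM with hairpin A in PM, against 522, 533, 494 and 513 CPM with the GFP hairpin, and 576, 609, 592 and 618 CPM in PE, against 505, 533, 593 and 559 CPM. The groups did not overlap in PM and overlapped in PE, and PSMD2 was called against GFP in neither line. Its call was lost in 13 of 24 fits that left out 1 library (adjusted p between 0.0517 and 0.0964, edgeR), namely replicates 1, 3 and 4 of hairpin A, replicate 1 of hairpin B and replicates 1, 2 and 4 of the GFP hairpin in PM, and replicates 2, 3 and 4 of hairpin A and 1, 2 and 4 of the GFP hairpin in PE. It was also lost with DESeq2 size factors (adjusted p 0.0593, edgeR). None of the 41 was called higher in this comparison (1 at an unadjusted p under 0.05, 1 by DESeq2 and 0 by limma-voom). For hairpin B none was called in either direction, against 1.47% of all genes tested higher and 0.98% lower. At an unadjusted p under 0.05 edgeR gave 1 higher and 2 lower, and DESeq2 and limma-voom gave 0 each.

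With the GFP hairpin, 10 of the 41 genes were called higher in PM than in PE, against 14.1% of all genes tested, and none was called lower, against 11.4% (0 at an unadjusted p under 0.05, 1 by DESeq2 and 0 by limma-voom). MYC was higher in PM by a log2 change of 0.91 ± 0.06 (adjusted p 1.35e-13, edgeR). The median log2 change of the 41 was 0.12, against 0.02 over all genes tested. The chaperones of the 20S core made up 3 of the 10, and they are 4 of the 41. The other genes called were PSMA3, PSMB6, PSMD4, PSMD6, PSMD7, PSME3 and PSMF1, with log2 changes between 0.17 and 0.22. This count is not stable. It was between 3 and 10 when 1 library was left out, with 3 without replicate 2 of the GFP hairpin in PM. It was 5 or 6 in each of the other fits except those without replicate 1 of hairpin B in PE, replicates 2 and 4 of the GFP hairpin in PE and replicates 1 and 3 of hairpin B in PM, which moved it by less than 1.5 times. It was 4 higher and 1 lower with DESeq2 size factors and 5 higher and 1 lower with library sizes alone. PSMG1 and PSMG3 were called under every alternative and without each library in turn.

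PSMG1 (chromosome 21, bases 39174769 to 39183514) had 101, 108, 97.8 and 94.3 CPM in PM, against 59.2, 71.9, 67.5 and 67.6 CPM in PE, with the GFP hairpin. The lines did not overlap, and the log2 change of 0.58 ± 0.08 was the largest of any of the 41 genes in the comparisons made (adjusted p 8.94e-07, edgeR). PSMG3, which works with PSMG4 in assembly of the alpha ring, had 44.1, 40.7, 39.3 and 41.1 CPM in PM, against 25.8, 37.7, 29.9 and 30.7 CPM in PE, a log2 change of 0.39 ± 0.10 (adjusted p 0.00231, edgeR). PSMG4 had 24.3, 30.3, 28.6 and 29.3 CPM in PM, against 23.6, 23.2, 20.4 and 22.9 CPM in PE, a log2 change of 0.33 ± 0.10 (adjusted p 0.0111, edgeR). Neither gene overlapped between the lines. PSMG4 lost its call in 4 of 24 fits that left out 1 library, those that dropped GFP hairpin replicate 3 in PE or replicates 2, 3 or 4 in PM (adjusted p between 0.0506 and 0.0802, edgeR). PSMD7, a lid subunit, had 156, 156, 153 and 151 CPM in PM, against 125, 139, 138 and 127 CPM in PE (log2 change 0.22 ± 0.06, adjusted p 0.00801, edgeR).

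The summed level of the 41 genes was 5905 to 6371 CPM with hairpin B and 6493 to 7054 CPM with hairpin A in PM, against 6117 to 6707 CPM with the GFP hairpin. In PE it was 5636 to 6290 CPM and 6388 to 6769 CPM, against 5561 to 6101 CPM. Hairpin A libraries lay above hairpin B libraries in each line, and in PE above the GFP hairpin libraries too. As a share of all counts, hairpin A in PE, at 0.622 to 0.653%, overlapped with the GFP hairpin, at 0.599 to 0.625%. In these bulk libraries fewer cells that express a gene and less RNA per cell cannot be told apart. The ratio of the summed 19S level to the summed 20S level, which no scaling between libraries changes, was 1.07 to 1.11 with hairpin B and 1.11 to 1.17 with hairpin A in PM, against 1.18 to 1.23 with the GFP hairpin. In PE it was 1.14 to 1.24 with hairpin B and 1.16 to 1.24 with hairpin A, against 1.19 to 1.26. The CHD1 hairpin libraries lay below the GFP hairpin libraries in PM and overlapped with them in PE.

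**Figure D5:**
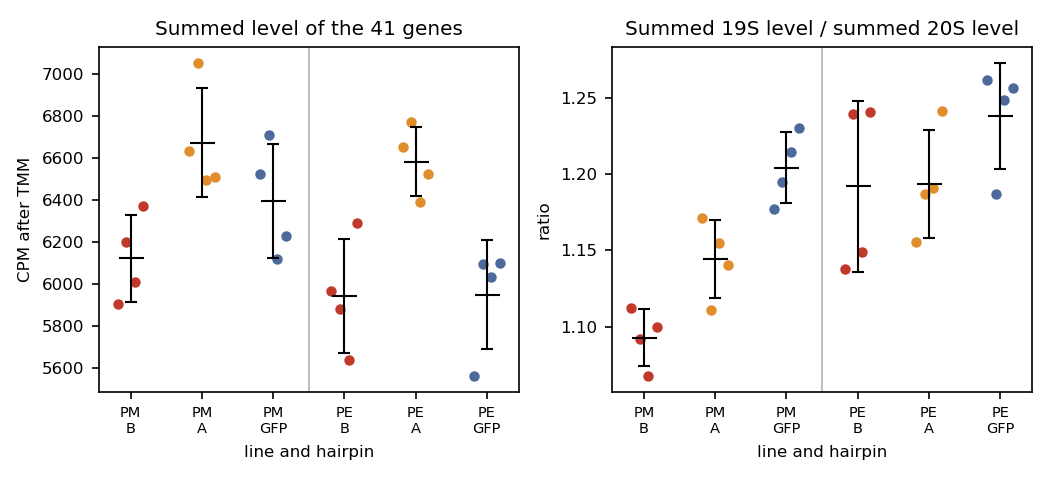
Summed level of the 41 genes (left, CPM after TMM) and ratio of the summed 19S to the summed 20S level (right, no unit) in each library (points) by line and hairpin, with mean and SD (bars, n = 4); the y axes do not start at 0. The ratio of every PM library with hairpin B or A is below that of the PM GFP libraries, while the PE groups overlap.

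Genes that act on or around the proteasome were counted in the same fit, from lists chosen by function. Of 10 genes of the NFE2L1 pathway, 3 were called higher and 4 lower with hairpin B in PM, 3 higher and 3 lower with hairpin A in PM, 4 higher and 1 lower with hairpin B in PE, and 3 higher and 2 lower with hairpin A in PE. In the same order, 13.6%, 13.4%, 13.6% and 10.9% of all genes tested were called higher and 14.4%, 14.3%, 13.2% and 9.33% lower, and these shares stand against the counts of the other lists too. NGLY1, the N-glycanase, rose in all 4, by a log2 change of 0.46 and 0.73 with hairpins B and A in PM and of 0.34 and 0.37 in PE. It had 33.3 to 39.1 CPM with hairpin B and 42.2 to 49.9 CPM with hairpin A in PM, against 26.95 to 28.43 CPM with the GFP hairpin, with no overlap. DDI2 rose by 0.39 and 0.63 in PM and by 0.30 with hairpin B in PE. The largest rise of the list with hairpin B in each line was that of NFE2L3. It averaged 15.1 and 13.4 CPM with hairpins B and A in PM, against 8.37 CPM with the GFP hairpin. In PE it averaged 25.1 and 16.7 CPM, against 15.9 CPM. NFE2L1 itself was lower with hairpin A in PM (-0.25), where its effect differed between the lines by -0.41 ± 0.11 (adjusted p 0.0229, edgeR). MAFF, a small MAF protein, fell by 0.90 and 1.63 on the log2 scale with hairpins B and A in PM and by 0.48 and 0.59 in PE.

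Of 12 proteasome-associated factors, 5 were called lower with hairpin B in PM and 3 in PE, while hairpin A gave 2 higher and 2 lower in PM and 2 higher in PE. UCHL5, a deubiquitinase bound to the 19S base, fell with hairpin B by 0.54 in PM and 0.45 in PE on the log2 scale. USP14, the other such deubiquitinase, fell with hairpin B by 0.31 and 0.22. Of 13 genes tested for ubiquitin supply, shuttle proteins and the p97 unfoldase, 2 were higher and 3 lower with hairpin B and 5 higher with hairpin A in PM, and 2 higher and 1 lower with hairpin B and 6 higher with hairpin A in PE. UBA1, the main ubiquitin-activating enzyme, rose by 0.28 and 0.26 in PM and 0.38 and 0.31 in PE with hairpins B and A. The shuttle gene RAD23B fell with hairpin B (0.30 in PM and 0.19 in PE on the log2 scale). Of the 5 immunoproteasome and PA28 genes, PSMB10 and PSME1 were called against GFP, both higher with hairpin B in PE (log2 change 0.32 and 0.23). With the GFP hairpin the interferon-inducible catalytic gene PSMB9 was lower in PM, at 7.60 to 22.9 CPM, against 64.5 to 78.4 CPM in PE (log2 change -2.31 ± 0.32, adjusted p 1.76e-05, edgeR). PSMB8 and PSME2 were also called lower in PM (log2 change -0.58 and -0.25), and PSMB10 was called higher, at 33.5 to 40.5 CPM in PM, against 18.7 to 29.5 CPM in PE (0.46). Of all genes tested, 11.4% were called lower and 14.1% higher in PM.

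Some levels are uncertain because reads can be shared. PSMC1 overlaps with NRDE2 on the opposite strand over 82.1% of its exon bases, and its processed copies held counts equal to 9.75% of its own. PSMC5 shares 16.2% of its exon bases with FTSJ3 on the opposite strand. PSMA6, PSMA2 and PSMA1 share 63.9%, 52.5% and 35.7% of theirs with another annotated gene on the same strand, and PSMD7 shares 42.4% with one on the opposite strand. Those 4 neighbours were not matched by name in the count table. PSMD9 also shares 14.0% of its exon bases with a further annotated gene on the same strand. PSMD11 shares 8.39% with one on the opposite strand. Neither of these neighbours was matched by name. PSMD13 shares 10.4% with SIRT3 on the opposite strand. FTSJ3 averaged 105 CPM, against 145 CPM for PSMC5. PSMA1, PSMA2, PSMC5, PSMD7, PSMD9, PSMD11 and PSMD13 are among the genes called above. The library kit keeps the strand, but the strand setting of the counting is not given in the sources used here.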

How the data were processed

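Poly(A) RNA of 24 libraries in 6 groups was sequenced. Per the submitters' processing notes, the authors used FastQC, Trim Galore 0.4.0, HISAT2 2.2.1 on GRCh38 and featureCounts, and the values they deposited are whole counts per gene without scaling. Not given in the sources used here are the annotation release, how strand was set, and what was done with multi-mapping reads. Groups and replicate numbers were taken from the labels, and every column had a sample.

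The 17236 genes without a count were left out, and filterByExpr kept 20820. All 24 libraries entered 1 edgeR 4.0.16 model (R 4.3.3) with a mean for each group, TMM scaling and robust quasi-likelihood, with 18 residual degrees of freedom and 9 contrasts. P-values are two-sided, with Benjamini-Hochberg adjustment over all genes tested, with a threshold of 0.05. SEs are approximate and were obtained from the log2 change and its F statistic. The median biological coefficient of variation was 18.96%, and the spread of a proteasome gene within a group had a median of 5.62%. No 2 replicates agreed within sampling noise (chi-square per degree of freedom of at least 5.90). Levels per kb used the union of GENCODE v29 exons, and coordinates and promoters came from RefSeq.

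The proteasome genes and the other lists were chosen with earlier results of these data known. Beyond each comparison's counts, the rule named up to 4 called members with the largest change per contrast, the highest and lowest member per length in each role group, up to 4 called genes of each other list, and NFE2L1. Further members were named after their values were seen. The alternatives were DESeq2 1.42.0 size factors, library sizes alone, the DESeq2 Wald test, limma-voom (limma 3.58.1), a block for the replicate number, no filter, a minimum of 5 CPM in 4 libraries, the compared groups alone, the fit without 3 libraries that stand apart, and fits that each dropped 1 library. The fit was tested on simulated data.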

Additional observations from a re-analysis of the deposited data

Results flagged for a closer look

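In groups of 4 libraries, 1 library lay far from the others in 7 of 108 groups examined, where chance alone gives about 5%. PSMD1 had 262 CPM in replicate 4 of hairpin A in PM, against 229.1 to 234 CPM in the others. In the same library PSMD7 had 149 CPM, against 157 CPM in each of the others, and PSMG4 had 25.8 CPM, against 32.2 to 33.1 CPM. PSMD11 had 109 CPM in replicate 3 of hairpin B in PM, against 124 to 126 CPM. PSMG3 had 23.9 CPM in replicate 3 of hairpin A in PE, against 30.98 to 31.20 CPM. The summed level of the proteasome genes was 5561 CPM in PE with the GFP hairpin (replicate 1), against 6035 to 6101 CPM in the others, and the ratio of the summed 19S to the summed 20S level was 1.19 in its replicate 2, against 1.25 to 1.26. The values of PSMD1, PSMD7 and PSMG4 come from a library that had the fewest genes detected in PM.

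The effect of hairpin A differed between the lines for 1 proteasome gene and for genes of the NFE2L1 pathway, by the test of the difference itself (PM minus PE, edgeR). The log2 difference was -0.25 for PSMD2 (adjusted p 0.0449), -0.41 for NFE2L1 (0.0229), 0.63 for NFE2L3 (0.0444), 0.48 for DDI2 (0.0403), 0.35 for NGLY1 (0.0498) and -1.03 for MAFF (3.16e-05).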

How the results depend on the processing

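Of the 29 changes of single genes named by the rule, none reversed under any alternative, and apart from fits without 1 library the call was lost for PSMD7 between the lines without a filter (adjusted p 0.067, edgeR) and for PSMD2 in the line difference of hairpin A under 4 alternatives. The counts of proteasome genes called moved as follows. For hairpin A in PE the count of 15 was 8 with library sizes alone and 8 without the 3 libraries that stand apart. For PM against PE with the GFP hairpin the count of 10 was 5 with DESeq2 size factors, 5 with the DESeq2 Wald test, 6 with library sizes alone, 6 with at least 5 CPM, 5 with the compared groups alone, 5 without the 3 libraries and 3 without a filter. For hairpin B against A the count of 14 in PE was 9 without a filter, and the count of 18 in PM was 10 with library sizes alone. For the line difference of hairpin A the count of 1 was 0 with DESeq2 size factors, 0 without a filter, 2 with the DESeq2 Wald test, 2 with at least 5 CPM and 3 with the replicate block, and with library sizes alone, and without the 3 libraries, it was 1 higher in place of 1 lower. For both hairpins in PE the count of 5 was 8 with at least 5 CPM. The cause of these moves was not tested.

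When each library was left out in turn, the counts ran from 8 to 15 for hairpin A and 9 to 14 for hairpin B in PE, from 10 to 15 and 11 to 17 in PM, from 3 to 10 for PM against PE, from 0 to 2 for the line difference of hairpin A and 0 to 0 for that of hairpin B, from 8 to 15 for hairpin B against A in PE and 11 to 20 in PM, and from 4 to 6 and 5 to 7 under both hairpins in PE and PM. With the replicate number as a block, the counts were 17 for hairpin A and 15 for hairpin B in PE, 18 and 17 in PM, 11 for PM against PE, 0 for the line difference of hairpin B, 18 and 19 for hairpin B against A in PE and PM, and 6 and 7 under both hairpins. The main fit does not pair the libraries by number. In 28 pairs, same-numbered libraries of 2 groups correlated between 0.0044 and 0.0885 in their deviations from the group means. All of these were above 0 and none was over 0.1. Libraries of unlike number were not compared in this way, so a weak effect shared by replicate number was not tested.

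Depth was lowest in GFP hairpin replicate 1 in PE, at 4.14 M counts.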
